A study of Mus musculus with 4 samples.

Results

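The nuclear factor I (NFI) family consists of the 4 genes Nfia, Nfib, Nfic and Nfix. They were taken by name from the deposited table of 55573 genes, and all 4 were found there and passed the filter on low counts. RNA had been sequenced from SmoWT neurospheres, cultures of a mouse medulloblastoma of the Sonic Hedgehog (SHH) subtype. The cells derive from spontaneous tumours of C57BL/6 mice that are Ptch1+/-, Trp53-/-, a background that control and treated cells share. The 2 control libraries came from cells given the solvent DMSO, and the 2 treated libraries from cells exposed to GDC0449 at 0.1 µM (the Smoothened inhibitor vismodegib). Both treatments lasted 24 h. The labels do not say whether replicates were separate cultures, whether the cells are a clone, or how many tumours they represent, so p-values measure only the spread between these libraries.

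NFI proteins are transcription factors that bind DNA as dimers through a conserved domain near their N terminus and recognise a palindrome built on the letters TTGGC. In the cerebellum they act as granule neuron progenitors leave the cell cycle, when they help switch on genes of migration, dendrite growth and synapses. In other parts of the nervous system the same factors take part in the onset of gliogenesis, and their partners there include Sox9.

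The libraries held 16329721 to 20790030 reads in genes. The treatment was visible in 3 genes that report Hedgehog activity. Gli1 fell from 272 ± 12.9 to 35.7 ± 4.28 CPM (counts scaled to a common library total; mean ± SD, n = 2), Hhip from 61.6 ± 2.31 to 10.4 ± 0.393 CPM and Ptch1 from 15.7 ± 0.466 to 8.05 ± 0.543 CPM. Ptch1 lost its call on log2(FPKM + 1), at -0.33 (limma adjusted p = 0.0832). Its FPKM were 0.743 and 0.753 in DMSO and 0.403 and 0.379 in GDC0449, so the added 1 shrinks their difference. The labelled cell type was checked against 8 markers of granule neuron progenitors: Zic1 stood at 542 ± 1.85 CPM and Atoh1 at 56.7 ± 2.01 CPM in DMSO, while Barhl1 was scarce at 0.378 ± 0.184 CPM.

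The members are separate genes with related coding sequence. In the longest coding model of each in GENCODE M21 (GRCm38), all 4 share an exact run of 17 bases early in the coding sequence. The stretches of 120 bases around it are shown because they display how alike the family is where its DNA-binding domain begins. Capitals mark the shared run.
Nfia: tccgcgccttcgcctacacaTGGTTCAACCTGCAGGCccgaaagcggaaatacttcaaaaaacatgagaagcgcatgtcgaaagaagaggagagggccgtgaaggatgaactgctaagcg
Nfib: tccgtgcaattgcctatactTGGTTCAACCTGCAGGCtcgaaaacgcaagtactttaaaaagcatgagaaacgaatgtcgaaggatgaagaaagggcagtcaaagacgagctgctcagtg
Nfic: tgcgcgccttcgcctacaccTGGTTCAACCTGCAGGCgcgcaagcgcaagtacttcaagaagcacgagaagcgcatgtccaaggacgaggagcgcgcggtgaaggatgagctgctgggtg
Nfix: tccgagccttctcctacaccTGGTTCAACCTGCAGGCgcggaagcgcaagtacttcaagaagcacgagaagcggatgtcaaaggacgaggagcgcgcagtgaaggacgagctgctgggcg
The stretches start at coding base 68 in Nfia, 71 in Nfib, 137 in Nfic and 44 in Nfix. Over the first 600 coding bases, identity between members ran from 73.8% for Nfia with Nfic to 83.0% for Nfic with Nfix. Over the remainder it ran from 64.5% for Nfib with Nfix to 70.9% for Nfia with Nfic. The longest exact run shared by any pair was 32 bases, between Nfic and Nfix. No stretch of 50 bases was common to the annotated transcripts of any of the 6 pairs.

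Nfia (ENSMUSG00000028565) and Nfib (ENSMUSG00000008575) both lie on chromosome 4, Nfia at chr4:97772734-98118874 on the plus strand and Nfib at chr4:82290173-82705750 on the minus strand. Nfic (ENSMUSG00000055053) lies at chr10:81396186-81455635 and Nfix (ENSMUSG00000001911) at chr8:84699876-84800344, both on the minus strand. Exons of overlapping genes covered at most 1.92% of the exonic bases of a member, the value for Nfix.

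Nfia rose after 24 h of GDC0449, Nfib and Nfic were higher by less than the 1.5-fold threshold, and Nfix showed the smallest difference. A gene was called at an adjusted p below 0.05 with edgeR's quasi-likelihood test together with a fold change over 1.5, the fold and false discovery thresholds that the study states. By this rule 1 of the 4 members was called higher and 0 lower, where 8.62% of 15472 tested genes were called higher and 3.80% lower. By adjusted p alone 3 of 4 were higher, against 18.0% of all genes tested. Because the members are abundant, the 2505 tested genes at 100 CPM or more are a closer background: 3.67% of them were called higher and 16.6% were higher by adjusted p alone. Bulk RNA cannot tell a change in the RNA of each cell from a change in the number of cells of a type.

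**Figure D1:**
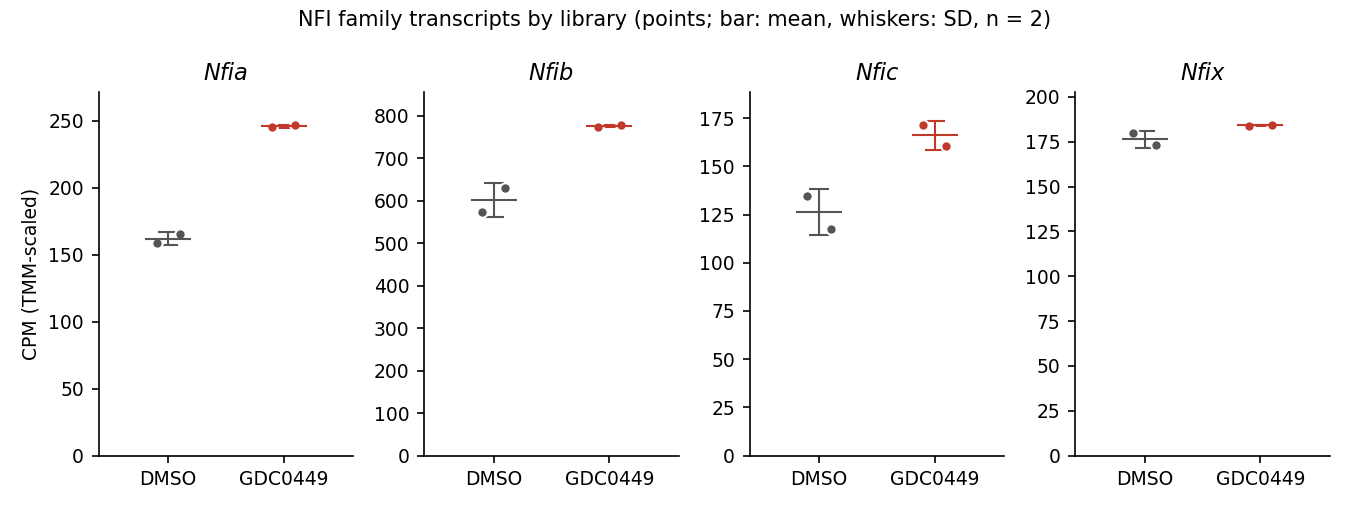
TMM-scaled CPM of Nfia, Nfib, Nfic and Nfix in each of the 2 DMSO and 2 GDC0449 libraries, on a separate axis from 0 for each gene. Points are libraries, horizontal bars are group means and whiskers are SD; the gap between groups is widest for Nfib in CPM and smallest for Nfix.

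Nfia had 159 and 165 CPM in DMSO replicates 1 and 2, and 245 and 247 CPM in GDC0449 replicates 1 and 2. The groups did not overlap, and the replicates of each lay close together. Nfia encodes an NFI protein needed for gliogenesis and for neuronal maturation. Its mean went from 162 ± 4.76 to 246 ± 1.23 CPM, a log2 fold change of 0.60 (standard error 0.06; edgeR adjusted p = 2.21e-11). As a ratio this is 1.52-fold with a 95% interval of 1.39 to 1.66, so the fold threshold falls inside the interval. The call was lost without DMSO replicate 1, at a log2 fold change of 0.57, and on log2(FPKM + 1), at 0.56 (limma adjusted p = 0.0663). Without the added 1, the log2 ratio of the mean deposited FPKM was 0.591, beside 0.585 for a fold of 1.5.

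Nfib was the most abundant member, with 574 and 630 CPM in DMSO and 775 and 778 CPM in GDC0449. Both treated libraries lay above both controls, and the DMSO libraries were further apart than the treated ones. Nfib has roles in granule neuron and glial development that partly match those of Nfia. Its mean went from 602 ± 39.6 to 776 ± 2.68 CPM, 1.29-fold with a 95% interval of 1.19 to 1.40 (log2 fold change 0.37, standard error 0.06; edgeR adjusted p = 1.44e-06). It passed the adjusted p and missed the fold threshold.

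Nfic had 135 and 118 CPM in DMSO and 171 and 161 CPM in GDC0449. Its groups did not overlap either, although the DMSO replicates differed by 13.4% of their mean, the widest replicate gap in the family. Nfic is best known for its part in tooth root formation. Its mean went from 126 ± 12.0 to 166 ± 7.61 CPM, 1.31-fold with a 95% interval of 1.20 to 1.44 (log2 fold change 0.39, standard error 0.07; edgeR adjusted p = 5.26e-06). It too missed the fold threshold, and without DMSO replicate 2 it also missed the adjusted p, at 0.0793. On log2(FPKM + 1) its adjusted p was 0.0611 with limma.

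Nfix had 180 and 173 CPM in DMSO and 184 in each GDC0449 library. The groups did not overlap but lay only 4.09 CPM apart at their nearest. Nfix is known for the timing of progenitor differentiation in the hippocampus and cerebellum. Its mean was 176 ± 4.75 CPM in DMSO and 184 ± 0.309 CPM in GDC0449, 1.04-fold with a 95% interval of 0.956 to 1.14 (edgeR adjusted p = 0.484). The interval excludes a 1.5-fold change in either direction in these counts. The direction depended on the deposited measure: the log2 fold change was 0.06 on counts and -0.20 on log2(FPKM + 1), where the limma adjusted p was 0.118. In FPKM both DMSO libraries, at 27.1 and 26.9, lay above both GDC0449 libraries, at 23.9 and 22.8.

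All 4 members therefore had both GDC0449 libraries above both DMSO libraries in CPM, which 33.6% of all tested genes also did. For Nfix this order was turned round in FPKM. Read numbers do not limit these values much, since a member had 1898 to 16445 reads in a library and counting error alone gives a coefficient of variation of at most 2.30%.

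**Figure D2:**
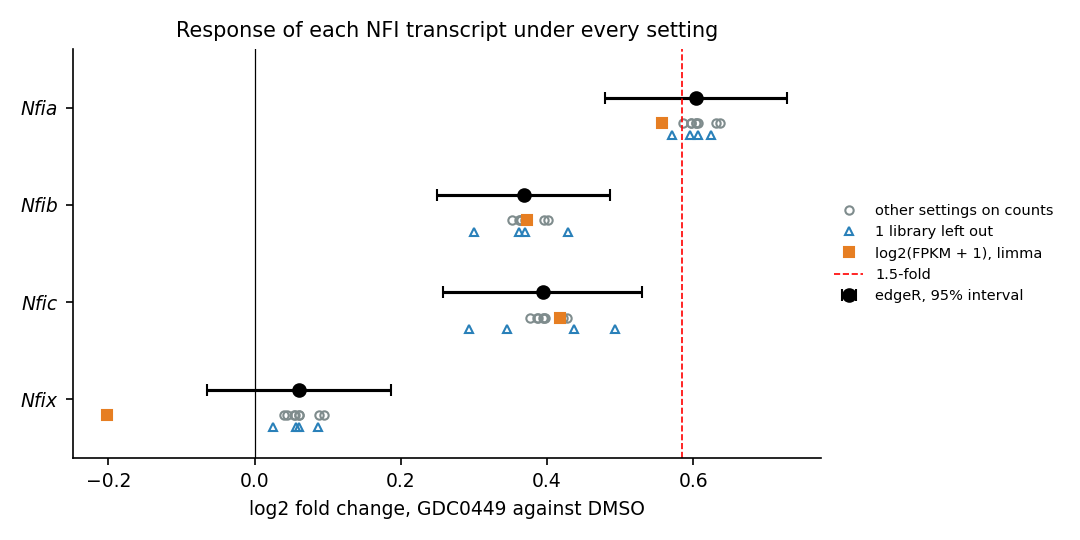
log2 fold change of each member between GDC0449 and DMSO (horizontal axis), with the edgeR value and its 95% interval in black and the 13 other settings below it; the dashed line marks 1.5-fold. Nfia stays near the line, at 0.56 to 0.64, Nfib and Nfic stay between 0.29 and 0.49, and Nfix lies near 0 except on log2(FPKM + 1).

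The summed CPM of the family was 1047 and 1086 in DMSO and 1375 and 1370 in GDC0449, a ratio of 1.29. The groups did not overlap. With 2 libraries against 2 the exact permutation test (two-sided) gave p = 0.333, the smallest that this test can give with so few libraries. Nfib gives most reads to this sum, in part because its exons are the longest, 14957 bases against 6630 for Nfic.

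Levels of different members were compared per length. In the deposited FPKM the order in DMSO was Nfib at 48.8 ± 3.44, Nfix at 27.0 ± 0.122, Nfic at 20.7 ± 2.42 and Nfia at 10.5 ± 1.95 (SD, n = 2). In GDC0449 it was Nfib at 63.4 ± 2.03, Nfic at 27.9 ± 1.25, Nfix at 23.3 ± 0.774 and Nfia at 15.8 ± 1.12. Nfib was thus the highest and Nfia the lowest in each group, and Nfic and Nfix changed places. As CPM per kilobase of exon the order in DMSO was the same, with 40.2 ± 2.65 for Nfib, 24.0 ± 0.646 for Nfix, 19.0 ± 1.81 for Nfic and 14.9 ± 0.437 for Nfia. On that scale Nfix and Nfic stood at 25.0 ± 0.0421 and 25.0 ± 1.15 in GDC0449 and did not differ beyond their spread. Nfib and Nfia were at 51.9 ± 0.179 and 22.6 ± 0.113.

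Nfia held a larger and Nfix a smaller share of the family in the GDC0449 libraries than in DMSO. Per kilobase of exon, Nfia held 14.9% and 15.4% of the family total in DMSO and 18.0% and 18.3% in GDC0449. Nfix held 25.0% and 23.9% in DMSO and 20.1% ± 0.165 in GDC0449. These shares did not overlap between groups, whereas those of Nfib (39.3% to 42.7%) and Nfic (18.0% to 20.8%) did. How often such shares separate in other sets of genes was not computed. In FPKM the share of Nfix went from 25.2% ± 0.788 to 17.9% ± 0.441 and that of Nfia from 9.78% ± 1.56 to 12.1% ± 0.754.

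**Figure D3:**
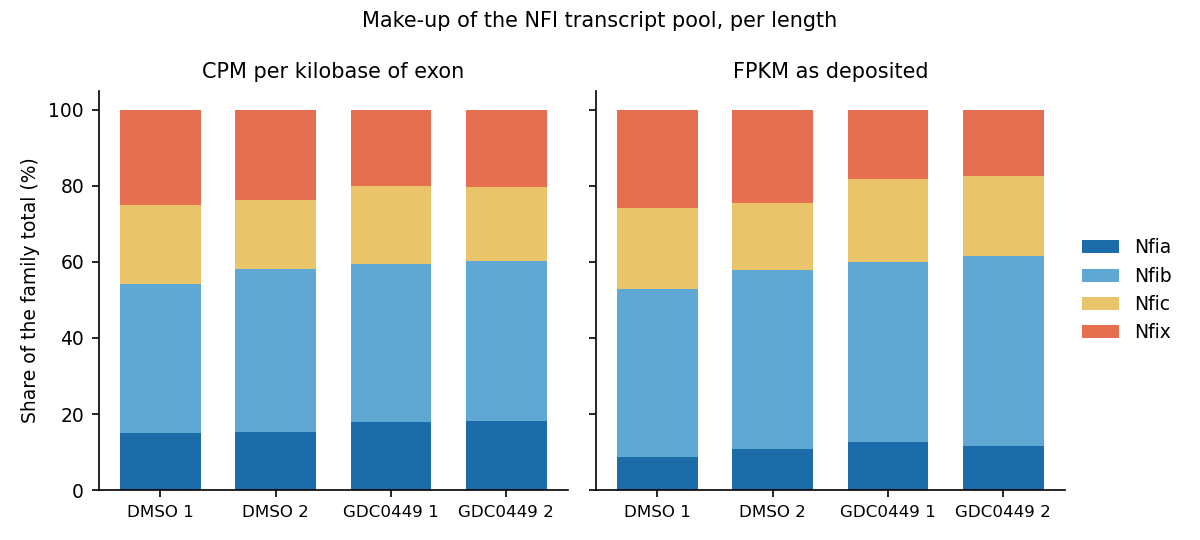
Share of each member in the family total (percent, bars from 0) in each library, from CPM per kilobase of exon at left and from the deposited FPKM at right. Nfib makes up the largest part in every library; the share of Nfix is smaller in both GDC0449 libraries on either scale.

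Responses of the members were set against each other as log2 ratios within each library, over 6 pairs. The ratio of Nfia to Nfix was -0.18 and -0.07 in DMSO and 0.41 and 0.42 in GDC0449, a difference of 0.54, with a standard error of 0.09 combined from the edgeR fits of the pair. The differences were 0.34 for Nfic against Nfix, 0.31 for Nfib against Nfix, 0.23 for Nfia against Nfib and 0.21 for Nfia against Nfic, each with a standard error of 0.09. Pairs built from the same 4 genes are not independent, and the share of all gene pairs without overlap was not computed. Groups did not overlap in the 5 pairs named here. Each gave an exact permutation p of 0.333 (two-sided), or 0.400 after Benjamini-Hochberg adjustment over the 6 pairs; 0.333 is the smallest p of that test here, so it says nothing of these differences. A model that pools the spread over genes was therefore added after the data were seen. It was limma on the log2 ratio of every tested gene to a member. Each member of a pair was the reference in turn, and the larger adjusted p was kept. Every ratio in such a fit shares the values of its reference, so pooling over genes does not average out the spread of that reference. The limma adjusted p thus depends on the reference: for Nfia and Nfix it was 9.63e-07 with Nfia and 4.68e-11 with Nfix.

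By this model Nfia differed from Nfix in response, at 0.54 with a 95% interval of 0.40 to 0.68 (limma adjusted p = 9.63e-07). That difference also passed in all 6 further fits, which used a replicate block, log2(FPKM + 1), or 3 of the 4 libraries. Nfib differed from Nfix with an adjusted p of 0.00657 and Nfic from Nfix with 0.0141 in limma, but neither passed without GDC0449 replicate 1 (0.149 and 0.394) or replicate 2 (0.158 and 0.199). Nfia differed from Nfib with a limma adjusted p of 0.0290, which was lost without GDC0449 replicate 1 (0.284) or 2 (0.297) and on log2(FPKM + 1) (0.532). Nfia and Nfic did not pass, with an interval of -0.03 to 0.45 (limma adjusted p = 0.143). Nfib and Nfic differed by -0.03 with overlapping groups and an interval of -0.27 to 0.21 (limma adjusted p = 0.858).

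Promoter sequence was available from RefSeq (GRCm38.p6) for 3 of the 4 members; Nfib had no entry. The 250 bases before the RefSeq start are shown for Nfia, the member called higher. They are also shown for Nfix, the member with the smallest difference, at the second of its 4 RefSeq starts. That window was chosen after its match was seen, as the first of the 4 to hold the core searched for. The bases after this start, and after that of Nfia, match no GENCODE M21 transcript of the gene. Those after the third Nfix start do, but its window (chr8:84773411-84773660) lies with all 250 bases in exons of Nfix and is not printed. The windows are chr4:97581693-97581942 on the plus strand and chr8:84775829-84776078 on the minus strand, printed in the direction of the gene. Capitals mark the NFI core TTGGC, searched on both strands.
Nfia: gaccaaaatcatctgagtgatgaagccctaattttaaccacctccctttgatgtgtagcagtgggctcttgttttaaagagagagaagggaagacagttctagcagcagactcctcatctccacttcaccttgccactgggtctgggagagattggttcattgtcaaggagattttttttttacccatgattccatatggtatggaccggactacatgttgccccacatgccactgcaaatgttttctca
Nfix: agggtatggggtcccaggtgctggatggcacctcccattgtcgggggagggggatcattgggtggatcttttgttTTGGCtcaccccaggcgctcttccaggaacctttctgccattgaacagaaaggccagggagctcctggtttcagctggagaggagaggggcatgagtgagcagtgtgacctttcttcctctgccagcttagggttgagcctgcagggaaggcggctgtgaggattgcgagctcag
The Nfia window lies 190792 bases before the start of the GENCODE M21 gene. It held no TTGGC, nor did the Nfic window (chr10:81427174-81427423), while 2 of the 4 Nfix windows held 1 each. Of all 32851 windows of this length 41.5% held at least 1. The palindrome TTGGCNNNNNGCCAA, which contains that core at each end, was in none of the 6 windows and in 0.0365% of all. The letters TGGGTGGTC, bound by Gli factors, were also in none of the 6 on either strand, and in 0.225% of all.

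Genes annotated inside or across the members were mostly near the limit of detection, with 2 exceptions. Gm11266 (chr4:82508016-82547292), an antisense RNA within Nfib that shares no exonic base with it, had 12.1 and 14.6 CPM in DMSO and 18.9 and 21.6 CPM in GDC0449. It rose 1.53-fold (edgeR adjusted p = 4.15e-05). The call was lost without DMSO replicate 1 or 2, at adjusted p of 0.116 and 0.0597. Without GDC0449 replicate 2 and on log2(FPKM + 1) it fell under the fold threshold, at log2 fold changes of 0.51 and 0.58. The strand setting of the counting is not given, so reads from unspliced Nfib and from Gm11266 cannot be told apart. E130114P18Rik (chr4:97568133-97778078), on the strand opposite Nfia and sharing 4 exonic bases with it, had 13.7 and 14.9 CPM in DMSO and 17.1 and 20.5 CPM in GDC0449 (log2 fold change 0.40, edgeR adjusted p = 0.00633) and missed the fold threshold. The other 8 overlapping genes had at most 23 reads in a library. Of these only Gm11267 and Lyl1 passed the filter on low counts, and neither was called.

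Among 11 factors known to act with or upstream of NFI proteins, all of which were tested, 1 fell and 0 rose, beside 3.80% and 8.62% of all genes. The faller was Sox9, which induces Nfia in glial progenitors and then pairs with its product. It had 50.1 and 50.9 CPM in DMSO and 29.7 and 29.9 CPM in GDC0449, a log2 fold change of -0.76 (edgeR adjusted p = 1.73e-10). Nfia and Sox9 thus passed the threshold in opposite directions. By adjusted p alone 5 of the 11 factors were higher and 4 lower, against 18.0% in each direction over all genes. The lower factors were Sox9, Ski (log2 fold change -0.26), Nfatc3 (-0.22) and Pax6 (-0.19). Among those higher was Pou3f2, a POU factor that acts on the Nfia enhancer, at 80.4 ± 0.162 and 114 ± 7.87 CPM. Nfatc4, a calcium-regulated factor that holds NFI off late granule neuron genes, was at 16.6 ± 0.310 and 23.3 ± 0.288 CPM. Etv1, an ETS factor that works with NFI at late genes, was at 37.7 ± 0.125 and 36.7 ± 1.91 CPM (edgeR adjusted p = 0.760). The median log2 fold change of the 11 was -0.04, beside 0.01 for all genes tested.

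Of 10 genes reported as NFI targets or as maturation genes of granule neurons, 5 passed the filter on low counts. Of these 2 rose and 0 fell, beside 8.62% and 3.80% of all genes. Cntn2, an axonal adhesion molecule, had 148 and 135 CPM in DMSO and 440 and 403 CPM in GDC0449, 2.97-fold (edgeR adjusted p = 9.44e-26). Neurod1, a factor of granule neuron differentiation, rose 1.82-fold, from 112 ± 8.55 to 203 ± 1.01 CPM (edgeR adjusted p = 1.37e-15). Grin2c, an NMDA receptor subunit of mature granule neurons, was at 54.6 ± 3.92 and 74.6 ± 1.07 CPM and missed the fold threshold. Efnb1, an ephrin ligand, was at 29.3 ± 1.22 and 38.0 ± 0.535 CPM and missed it also. Itsn1, an endocytic scaffold, was at 282 ± 4.77 and 267 ± 10.7 CPM. Gabra6, the GABA receptor subunit that marks mature granule neurons, had 0 reads in each library, as had Wnt7a. Both are listed at 0 in the deposited FPKM too. A count of 0 over all libraries allows at most 0.0385 CPM in these counts, the level of 3 reads. Cdh2 was not tested either, with 1 read in DMSO replicate 2 and 0 in each other library. Cacng2 and Vsnl1 were also not tested, at up to 2 and 8 reads in a library. The median of the 5 tested genes was 0.45.

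Of 10 astroglial genes linked to NFI 9 were tested, and 3 rose and 0 fell, beside 8.62% and 3.80% of all genes. Mmd2, a target shared by Nfia and Sox9 in glial precursors, rose 2.25-fold, from 14.8 ± 1.09 to 33.4 ± 1.65 CPM (edgeR adjusted p = 1.79e-13). Apcdd1, another such target, rose 2.12-fold, from 4.18 ± 1.35 to 9.02 ± 0.644 CPM. The call was lost without DMSO replicate 2, at a log2 fold change of 0.80, and on log2(FPKM + 1) (limma adjusted p = 0.118). The FPKM of Apcdd1 were 0.335 and 0.203 in DMSO and 0.582 and 0.546 in GDC0449, so the added 1 shrinks their difference. Sparcl1, a secreted matrix protein of astrocytes, rose 2.19-fold, from 15.8 ± 1.22 to 34.8 ± 0.840 CPM. Zcchc24, the other target of Nfia with Sox9 in the list, was at 6.70 ± 0.0886 and 9.33 ± 0.930 CPM. Gfap, the astrocyte filament, was scarce at 1.24 ± 0.181 and 2.04 ± 0.534 CPM, and Aqp4, the astrocyte water channel, had 0 reads in each library. The remaining members include 3 that were lower and not called. Apoe, the lipid carrier of astrocytes, was at 30.1 ± 1.15 and 24.8 ± 3.23 CPM (log2 fold change -0.28, edgeR adjusted p = 0.0198). The calcium-binding S100b was at 1.101 ± 0.241 and 0.734 ± 0.436 CPM (-0.60, edgeR adjusted p = 0.288) and the glutamate transporter gene Slc1a3 at 75.2 ± 4.46 and 71.4 ± 1.87 CPM (-0.07). The median log2 fold change of the 9 was 0.48.

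Of 6 progenitor genes listed as held down by NFI factors in other settings 4 were tested, with 1 called higher and 1 lower, beside 8.62% and 3.80% of all genes, and a median of -0.10. Sox9, which this list shares with the partners, was the faller. Insc, a regulator of spindle orientation, rose 2.71-fold, from 2.44 and 1.55 CPM in DMSO to 5.69 and 5.35 CPM in GDC0449 (edgeR adjusted p = 1.48e-06). On log2(FPKM + 1) its log2 fold change was 0.09 (limma adjusted p = 0.574). The FPKM of Insc were at most 0.186, a level at which the added 1 shrinks any difference. Ezh2, the Polycomb methyltransferase, was at 147 ± 3.71 and 140 ± 0.557 CPM. The Notch effectors Hes1 and Hes5 were too scarce to be tested, below 0.3 CPM on average in each group.

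**Figure D4:**
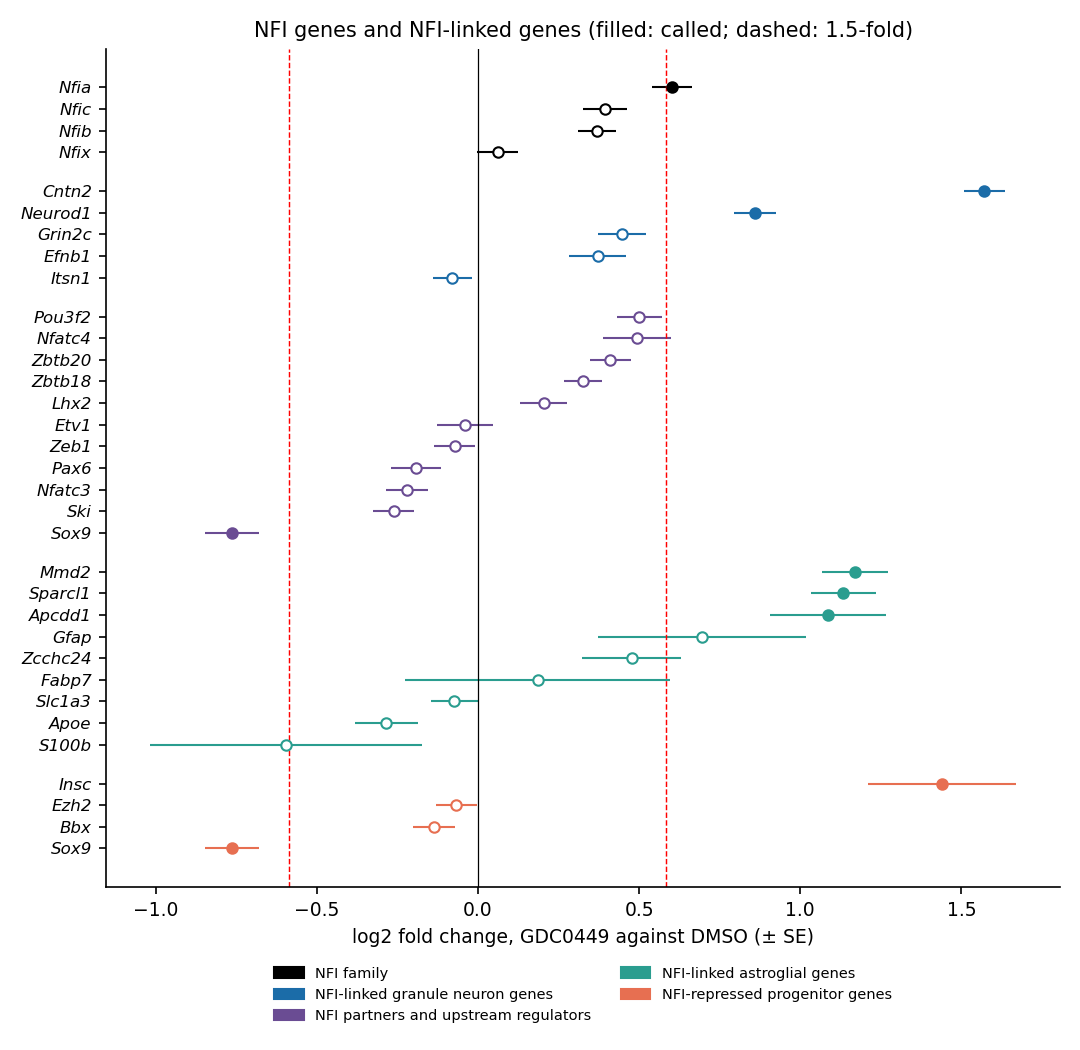
log2 fold change (± SE) of the NFI members and of the tested genes of the 4 linked lists between GDC0449 and DMSO; filled points were called, and dashed lines mark 1.5-fold in each direction. Nfia is the filled member, Cntn2 lies furthest to the right and Sox9, shown in both of its lists, furthest to the left.

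Markers of several cell types also differed between the groups. Among granule neuron markers 6 of 11 tested rose and 0 fell, beside 8.62% and 3.80% of all genes. The list summed to 1644 and 1641 CPM in DMSO and to 2759 and 2733 CPM in GDC0449. The progenitor list summed to 3341 and 3301 CPM in DMSO and to 2820 and 2938 CPM in GDC0449, with Atoh1 risen and Ccnd2 fallen. Mycn, the Hedgehog-driven Myc gene of progenitors, makes up much of that sum, at 1307 ± 36.5 and 898 ± 19.5 CPM (log2 fold change -0.54, edgeR adjusted p = 3.37e-11), under the fold threshold. On log2(FPKM + 1) Mycn was called lower, at -0.71 (limma adjusted p = 0.0260). By adjusted p alone 3 of the 7 tested progenitor markers were higher and 3 lower, against 18.0% in each direction over all genes. The median log2 fold change of these markers was -0.06. Of 7 tested astrocyte markers 3 rose and 0 fell, and the sum went from 216 and 231 CPM to 342 and 336 CPM. Most of that difference is Slc1a2, a glutamate transporter gene, at 78.0 ± 7.69 and 177 ± 1.96 CPM. Gja1, which encodes a gap junction protein, was lower and not called, at 45.1 ± 1.098 and 38.7 ± 0.301 CPM (edgeR adjusted p = 0.0329), as were S100b and Slc1a3. Cntn2, Dcx, Cbln1 and Elavl4 had the smallest p among the neuronal markers, and Slc1a2, Sparcl1 and Aldoc were the astrocyte markers that rose. Of the 11 tested neuronal markers 9 had a positive log2 fold change. Map2 missed the fold threshold on counts, at 0.51, and was called higher on log2(FPKM + 1), at 0.60 (limma adjusted p = 0.00848). Rbfox3, at 48.2 ± 2.92 and 45.7 ± 3.99 CPM (-0.08), and Etv1 (-0.04) were lower and not called. The neuronal marker Gabra6 had 0 reads in each library. Without DMSO replicate 2 Tubb3 fell under the fold threshold, at 0.55, and Aldoc missed the adjusted p, at 0.0578. The astrocyte-defining Aqp4, Aldh1l1 and Gjb6 had 0 reads in each library. Oligodendrocyte lineage markers summed to 72.0 and 73.2 CPM in DMSO and to 89.7 and 89.5 CPM in GDC0449, with 1 of 6 tested, Cnp, called higher, and Olig1 had 0 reads. Microglia markers summed to at most 3.04 CPM in any library, with 1 of 2 tested, Tyrobp, called lower. Without DMSO replicates 1 and 2 in turn Cnp had adjusted p of 0.218 and 0.141 and Tyrobp of 0.0842 and 0.119, so neither call held. Cnp was also lost without GDC0449 replicate 2 (0.171), and Tyrobp without GDC0449 replicate 1 (0.0911). The part of these markers in the NFI values was not tested.

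The genes whose profile over the 4 libraries lay nearest to each member were found among 7973 other genes of at least 20 CPM, by Euclidean distance between centred log2 CPM. Nearest to Nfia were Numb, an inhibitor of Notch signalling, at a distance of 0.0137, and Lrba, a vesicle trafficking protein, at 0.0158. Nearest to Nfib were the pocket protein gene Rbl2 and the transcription factor gene Zfhx3, at 0.0296 and 0.0348. Tnrc18 and Trim3 lay nearest to Nfic, at 0.0149 and 0.0161, and Brap and Susd6 nearest to Nfix, at 0.00625 and 0.0103. Family members were not each other's nearest: Nfib ranked 421 from Nfia at 0.240, and Nfix ranked 2368 from it at 0.548. With 4 libraries many genes share a profile, and 57 lay within 0.1 of Nfia and 844 within 0.1 of Nfix.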

How the data were processed

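RNA was sequenced in 4 libraries. Per the submitters' processing notes, reads were trimmed with Trim Galore, mapped to mm10 with HISAT2 and counted with HTSeq 0.11.1; DESeq2 1.26.0 was the authors' own test. For each gene the authors deposited raw counts and, beside them, FPKM (reads scaled by gene length and depth). The sources used here do not give the annotation release, strand setting or FPKM tool. Of its genes 546 had 0 counts but an FPKM of at least 1 in all 4 libraries, so both measures do not come from the same assignment of reads. The 6 entries that name no gene were left out; unassigned classes made up 12.3% to 14.4% (no feature), 4.73% to 4.91% (ambiguous) and 10.4% to 10.7% (not unique) of reads. Symbols came from GENCODE M21 (GRCm38), which held 55480 of the 55573 identifiers.

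The test on counts was that of edgeR 4.0.16 (R 4.3.3; TMM scaling, default expression filter, quasi-likelihood test, group as the only term, Benjamini-Hochberg over 15472 genes), after the code had been tested on simulated data. Calls needed an adjusted p below 0.05 and a fold over 1.5. Standard errors are the log2 fold change over the square root of F. CPM use TMM factors; CPM per kilobase use the union of GENCODE exons. The estimated coefficient of variation was 4.82%. Replicates differed by more than sampling noise (chi-square per gene 4.13 in DMSO and 3.42 in GDC0449). The intervals of the limma model of ratios use the spread between libraries, pooled over genes. The floor for genes without reads covers counting error only. On FPKM, limma 3.58.1 was run on log2(FPKM + 1) for genes with a mean over 0.1.

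Named genes are the members, genes overlapping them, 3 Hedgehog readouts, the called list members (or the most abundant), and the 2 nearest profiles of each member. Other list members in the text were chosen after their values were seen. The members and lists were chosen with earlier results of these data known. Alternatives were 2 other scalings, 2 other filters, DESeq2 1.42.0, limma-voom, FPKM, a replicate block, leaving out each library, and counts thinned to the smallest library. The limma model of ratios between members was added after the data were seen.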

Additional observations from a re-analysis of the deposited data

How the results depend on the processing

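Nfia was called in 11 of 13 alternatives and had a positive log2 fold change in all 13. It missed the fold threshold without DMSO replicate 1, at 0.57, and both thresholds on log2(FPKM + 1), at 0.56, and in these settings 0 members were called; leaving out each library gave 0.57 to 0.62, and 0 to 1 members called. Nfib was higher at an adjusted p under the threshold in all 13, and Nfic in 11. Nfix reversed on log2(FPKM + 1), at -0.20, and was positive in the other 12; the cause was not tested. On log2(FPKM + 1) the list of progenitor genes held down by NFI factors had 1 called gene rather than 2, as Insc was lost. Nfib made up 45.6% of the family in DMSO by FPKM and 41.0% per kilobase of exon.

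Over all genes 1921 were called. The filter at 5 CPM left 1165, DESeq2 gave 1226 and log2(FPKM + 1) gave 858; leaving out each library gave 852 to 1711, with 929 without DMSO replicate 1 and 852 without DMSO replicate 2, and the cause was not tested. The replicate numbers are not stated to pair the libraries, and deviations of same-numbered libraries correlated at 0.22. With a replicate block 2000 genes were called, and the calls of the 4 members were as without it, with Nfia at 0.60.

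For the differences between members in response, the exact test passed for 0 of 6 pairs, because of its smallest p. The added limma model passed Nfia against Nfix at 0.54, Nfic against Nfix at 0.34, Nfib against Nfix at 0.31 and Nfia against Nfib at 0.23. Of these, only Nfia against Nfix also passed with either GDC0449 library left out, as given above. With a replicate block Nfia against Nfic passed as well (limma adjusted p = 0.0104). The difference of Nfia from Nfic was 0.08 without DMSO replicate 1 and 0.33 without DMSO replicate 2.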
